A study of Mus musculus with 6 samples.

Results

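The proteasome genes of the mouse were examined in bulk RNA of liver from mice on a CDAHFD diet and from mice on a normal diet. Members were the gene IDs whose symbol is Psma, Psmb, Psmc, Psmd, Psme, Psmf or Psmg followed by a number, without pseudogene names, and with at least 10 raw counts summed over the 6 libraries. There were 49 of them, out of 56847 gene IDs in the count table and 26131 counted at least once. Of these, 5 (Psmb8, Psmb9, Psmb10, Psme1 and Psme2) belong to the interferon-inducible immunoproteasome, and the other 44, called the standard members here, made the comparison set. Psmb11, the thymus form of a catalytic subunit, matched the name but had 0 counts in all 6 libraries, and 4 pseudogene names were left out. One member by name, Psmc3ip, is no proteasome subunit but a meiotic recombination factor.

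The study is on the enzyme ALDH18A1 in metabolic dysfunction-associated steatohepatitis, and its design text asks how pathways of lipid metabolism and of the mitochondria change with diet. The 2 groups were liver from mice on CDAHFD, with 3 libraries, and liver from mice on normal diet, with 3 libraries. CDAHFD is a feed rich in fat, without choline and with amino acids in place of protein, on which mice develop steatohepatitis. The labels give no strain, genotype, age, sex or time on diet, and do not say whether each library is a separate animal. The p-values therefore measure only how far these 6 samples spread, which may be technical. Total counts per library ran from 21986215 to 25628531.

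The proteasome breaks down proteins tagged with ubiquitin. Its barrel-shaped core is a stack of alpha and beta rings with the cutting sites on 3 of the beta subunits, and a regulatory particle on each end recognises the tagged protein, unfolds it with a ring of ATPases and feeds it in. In cells exposed to interferon gamma, and in leukocytes without it, Psmb8, Psmb9 and Psmb10 take the places of Psmb5, Psmb6 and Psmb7, and Psme1 and Psme2 form a cap that opens the core. The peptides made by this form are well suited to display on MHC class I molecules.

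Promoters of 4 members are shown. Psmb8 and Psmb9 are inducible catalytic subunits, and Psmb10, the other one of that kind, is not shown. Psmb5 is the standard subunit that Psmb8 replaces. Psmd8 is the standard member that moved the other way from its neighbours in the particle. Each promoter is the RefSeq sequence from 250 bases before to 50 bases after the annotated start, in GRCm38.p6, an older build than the GRCm39 of the counts. Psmb8 lies on chr17:34197945-34198244 on the plus strand, Psmb9 on chr17:34187281-34187580 on the minus strand, Psmb5 on chr14:54617946-54618245 on the minus strand and Psmd8 on chr7:29180624-29180923 on the minus strand. Capitals mark matches to any of 4 short motifs, searched on both strands: an interferon-stimulated response element (GAAA and GAAA with any 2 bases between), a gamma-activated site (TTCNNNGAA), an NF-kB site (GGG and CC with any 5 bases between) and an antioxidant response element (TGACNNNGC).
Psmb8: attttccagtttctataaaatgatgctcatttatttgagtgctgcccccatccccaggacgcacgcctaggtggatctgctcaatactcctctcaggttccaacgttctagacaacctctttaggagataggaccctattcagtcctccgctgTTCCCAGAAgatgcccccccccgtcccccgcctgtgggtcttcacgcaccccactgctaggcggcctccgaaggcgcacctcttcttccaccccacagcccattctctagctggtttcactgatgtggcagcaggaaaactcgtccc
Psmb9: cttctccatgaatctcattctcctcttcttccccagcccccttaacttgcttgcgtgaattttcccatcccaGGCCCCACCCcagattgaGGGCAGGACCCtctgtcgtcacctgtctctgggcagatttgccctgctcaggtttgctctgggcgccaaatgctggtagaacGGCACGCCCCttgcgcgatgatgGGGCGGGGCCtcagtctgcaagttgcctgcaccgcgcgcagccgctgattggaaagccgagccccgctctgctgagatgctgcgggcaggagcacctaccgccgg
Psmb5: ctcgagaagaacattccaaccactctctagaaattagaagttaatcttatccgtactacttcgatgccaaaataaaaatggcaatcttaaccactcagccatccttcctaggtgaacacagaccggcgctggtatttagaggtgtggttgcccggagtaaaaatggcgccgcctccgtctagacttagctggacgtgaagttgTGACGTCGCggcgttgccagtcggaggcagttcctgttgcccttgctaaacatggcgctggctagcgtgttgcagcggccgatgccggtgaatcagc
Psmd8: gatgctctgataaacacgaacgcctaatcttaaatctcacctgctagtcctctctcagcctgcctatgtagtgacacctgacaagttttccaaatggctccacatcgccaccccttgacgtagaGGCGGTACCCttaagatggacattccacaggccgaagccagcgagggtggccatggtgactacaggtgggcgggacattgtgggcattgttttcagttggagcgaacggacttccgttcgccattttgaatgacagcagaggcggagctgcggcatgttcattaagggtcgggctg

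Psmb8 held a gamma-activated site, a motif found in genes that answer interferon gamma, 97 to 89 bases before its start. Such a site stood in 3 of the 41 members with a promoter in the RefSeq table (Psmb8, Psmd2 and Psmg1) and in 8.30% of all 32851 promoters. The Psmb9 window held 5 NF-kB matches, 2 of which overlap, but that motif is loose: 50.8% of all promoters and 24 of the 41 members had it. Psmb5 held an antioxidant response element 47 to 39 bases before its start, as did Psmb6, Psmc6, Psmd12, Psmd9 and Psme4, with 12.4% of all promoters matching. The interferon-stimulated response element was matched in 5 members (Psmb3, Psmd4, Psmd9, Psme1 and Psmg4), against 3.44% of all promoters. The window of Psmb10 matched none of these motifs. A member was counted if any of its windows matched, whereas the shares of all promoters count single windows, so members with several windows had more chances. These matches describe the letters in the windows only, and further annotated starts, which Psmb8 and Psmb10 among others have, were not searched.

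Levels are given as CPM, the counts per 1000000 counts of the library, after TMM scaling, which sets the libraries so that the typical gene does not move, and changes as the log2 ratio of CDAHFD over normal diet with its standard error (SE). A gene was called changed where edgeR's quasi-likelihood test gave a Benjamini-Hochberg adjusted p under 0.05 over the 14215 genes tested. On that scale the 3 inducible catalytic subunits rose on CDAHFD and most of the standard proteasome fell. Of the 5 immunoproteasome genes 3 rose and 0 fell, with a median log2 change of 0.61. Of the other 44 members 3 rose and 28 fell, with a median of -0.35. Of all genes tested 28.5% rose and 23.5% fell, with a median of 0.01. In CPM, 8 of the 49 members were higher in every CDAHFD library and 31 were lower in every CDAHFD library, against 32.2% and 28.4% of all genes tested. Psma8 and Psmc3ip passed the filter on low counts only through their CDAHFD libraries, so a call of either adds no support. With at least 1 CPM asked of 3 libraries 2 of 42 standard members rose and 28 fell.

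The fall of the standard members depends on the scaling: 28 fell and 3 rose with TMM, whereas 8 fell and 7 rose when libraries were scaled to their total counts, and 0 fell and 10 rose when they were scaled to hepatocyte markers. The median gene itself moved between these scalings, by 0.01 with TMM, 0.34 with total counts and 0.54 with hepatocyte markers. A change of scaling moves all genes by nearly the same amount, so the place of a gene group relative to that median is fixed by construction: -0.36 for the standard members and 0.60 for the immunoproteasome genes with TMM. With total counts, 44.0% of all genes rose and 8.08% fell, and with hepatocyte markers 55.6% rose and 4.05% fell. The hepatocyte scaling used the summed counts of its markers, of which Alb, the albumin gene, made up the larger part in every library. Markers with low counts therefore weighed little in it. With limma on log2(TPM + 1), 1 standard member fell and 8 rose, against 6.31% of all genes lower and 45.4% higher. As a share of all counts, the 44 standard members together made up 0.301% to 0.320% on CDAHFD and 0.310% to 0.311% on normal diet, with overlap. That overlap rests on Psmd8, which made up 113, 89.3 and 103 of each 1000 of these counts on CDAHFD, against 41.7, 47.8 and 47.5 on normal diet. With Psmd8 left out, the summed share of the rest was lower in every CDAHFD library. The 5 immunoproteasome genes made up 0.0277% to 0.0310% of all counts on CDAHFD and 0.0167% to 0.0219% on normal diet, with no overlap. The log2 changes of the standard subunits below are relative to the typical gene, not to the whole library.

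**Figure D1:**
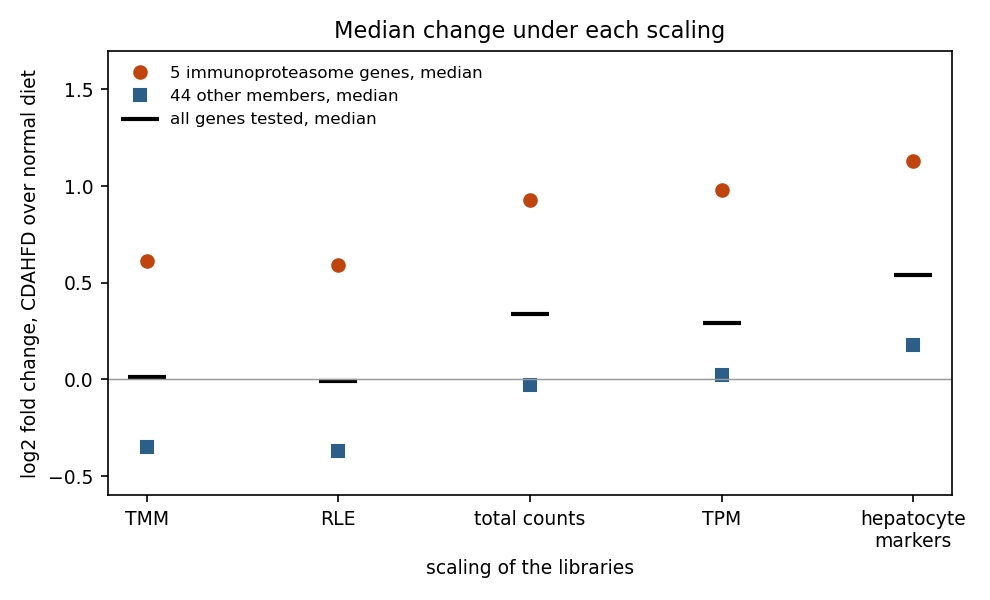
Median log2 fold change of CDAHFD over normal diet (vertical axis) for the 5 immunoproteasome genes (circles), the 44 other members (squares) and all genes tested (bars) under 5 ways of scaling the libraries (horizontal axis). The scaling shifts all 3 marks together, so that their order is no separate evidence, and the squares cross 0, with a median of -0.35 under TMM and 0.18 under hepatocyte markers.

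Markers of the cell types in the tissue also differed between the diets. Of 14 leukocyte markers 11 rose and 0 fell, and their summed level was 470.1 to 473.4 CPM on CDAHFD against 104.9 to 136.5 CPM on normal diet, with none at 0. Among those called higher, Itgam, Cd3e, Cd8a, Nkg7 and Ncr1 passed the filter on low counts only through their CDAHFD libraries, so their calls add no support. Of 9 stromal and endothelial markers 6 rose and 0 fell, with a summed level of 895.3 to 998.7 CPM on CDAHFD against 384.6 to 451.7 CPM on normal diet. The stromal genes Col1a1, Pdgfrb, Dcn, Des and Lrat all rose. Of the endothelial genes only Lyve1 rose, and Pecam1, Stab2 and Kdr were not called. Of 12 hepatocyte markers 0 rose and 11 fell, with a summed level of 100200 to 115300 CPM on CDAHFD against 147200 to 168100 CPM on normal diet. The part of these shifts in the results for proteasome genes was not tested, and in bulk tissue fewer cells of a type and less RNA per cell cannot be told apart.

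The catalytic immunosubunits were examined first. Psmb9 (ENSMUSG00000096727), the inducible form of the caspase-like subunit Psmb6, had 30.9, 40.6 and 38.4 CPM in the CDAHFD libraries, against 11.5, 14.7 and 22.5 CPM in the normal diet libraries. All CDAHFD libraries lay above all normal diet libraries, and normal diet replicate 3 was the highest of its diet. Psmb9 averaged 36.6 ± 5.09 CPM on CDAHFD and 16.3 ± 5.66 CPM on normal diet (SD, n = 3 each), a log2 change of 1.17 ± 0.21 (SE; adjusted p = 0.000681, edgeR's quasi-likelihood test).

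Psmb8 (ENSMUSG00000024338), the inducible form of the chymotrypsin-like subunit Psmb5, had 12.7, 15.6 and 18.6 CPM in the CDAHFD libraries, against 7.42, 7.94 and 11.2 CPM in the normal diet libraries. The diets again did not overlap, and normal diet replicate 3 again stood above the other 2 of its diet. The log2 change was 0.82 ± 0.19 (adjusted p = 0.00354, edgeR's quasi-likelihood test).

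Psmb10 (ENSMUSG00000031897), the inducible form of the trypsin-like subunit Psmb7, had 50.3, 58.4 and 55.4 CPM in the CDAHFD libraries, against 33.5, 30.3 and 43.6 CPM in the normal diet libraries. There was no overlap, with a gap of a few CPM between the lowest CDAHFD library and normal diet replicate 3. The log2 change was 0.61 ± 0.14 (adjusted p = 0.00314, edgeR's quasi-likelihood test). All 3 catalytic immunosubunits were also higher under each scaling tried.

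The cap subunits were not called on this scale. Psme1 (ENSMUSG00000022216), its alpha subunit, had 84.2, 98.5 and 99.9 CPM in the CDAHFD libraries, against 87.9, 108.0 and 99.8 CPM in the normal diet libraries. The diets overlapped, and the log2 change of -0.07 ± 0.12 did not pass (adjusted p = 0.661, edgeR's quasi-likelihood test); it was 0.26 with total counts and 0.46 with hepatocyte markers. Psme2 (ENSMUSG00000079197), its beta subunit, had 68.6, 66.6 and 60.1 CPM in the CDAHFD libraries, against 49.8, 42.5 and 67.2 CPM in the normal diet libraries. Normal diet replicate 3 lay among the CDAHFD libraries, and the log2 change of 0.29 ± 0.15 did not pass (adjusted p = 0.126, edgeR's quasi-likelihood test). Without that library the change was 0.49, with an adjusted p of 0.006 by the same edgeR test. It also passed with total counts, at 0.62 (adjusted p = 0.00396, edgeR's quasi-likelihood test). Psme1 and Psme2 are near neighbours on mouse chromosome 14, with Emc9 between them. Reads of Psme2 may be shared with its close copy Psme2b, and the labels do not say how the counting treated them.

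The standard catalytic subunits, which hold the same places in the core, were read in the same way. Psmb5 (ENSMUSG00000022193) had 37.6, 36.3 and 38.1 CPM in the CDAHFD libraries, against 39.2, 29.7 and 42.1 CPM in the normal diet libraries, a log2 difference of 0.01 ± 0.13 (adjusted p = 0.936, edgeR's quasi-likelihood test). Psmb6 (ENSMUSG00000018286) had 91.5, 94.0 and 101.4 CPM in the CDAHFD libraries, against 107.6, 81.7 and 119.1 CPM in the normal diet libraries, a log2 difference of -0.10 ± 0.14 (adjusted p = 0.547, edgeR's quasi-likelihood test). For both genes the diets overlapped, and normal diet replicate 2 was the lowest library. Psmb7 (ENSMUSG00000026750) had 59.3, 54.7 and 53.0 CPM in the CDAHFD libraries, against 83.2, 78.7 and 95.8 CPM in the normal diet libraries. It fell without overlap, by 0.62 ± 0.11 on the log2 scale (adjusted p = 0.000619, edgeR's quasi-likelihood test), and was also lower with total counts, at -0.30 (adjusted p = 0.0416, edgeR's quasi-likelihood test), though not with hepatocyte markers.

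**Figure D2:**
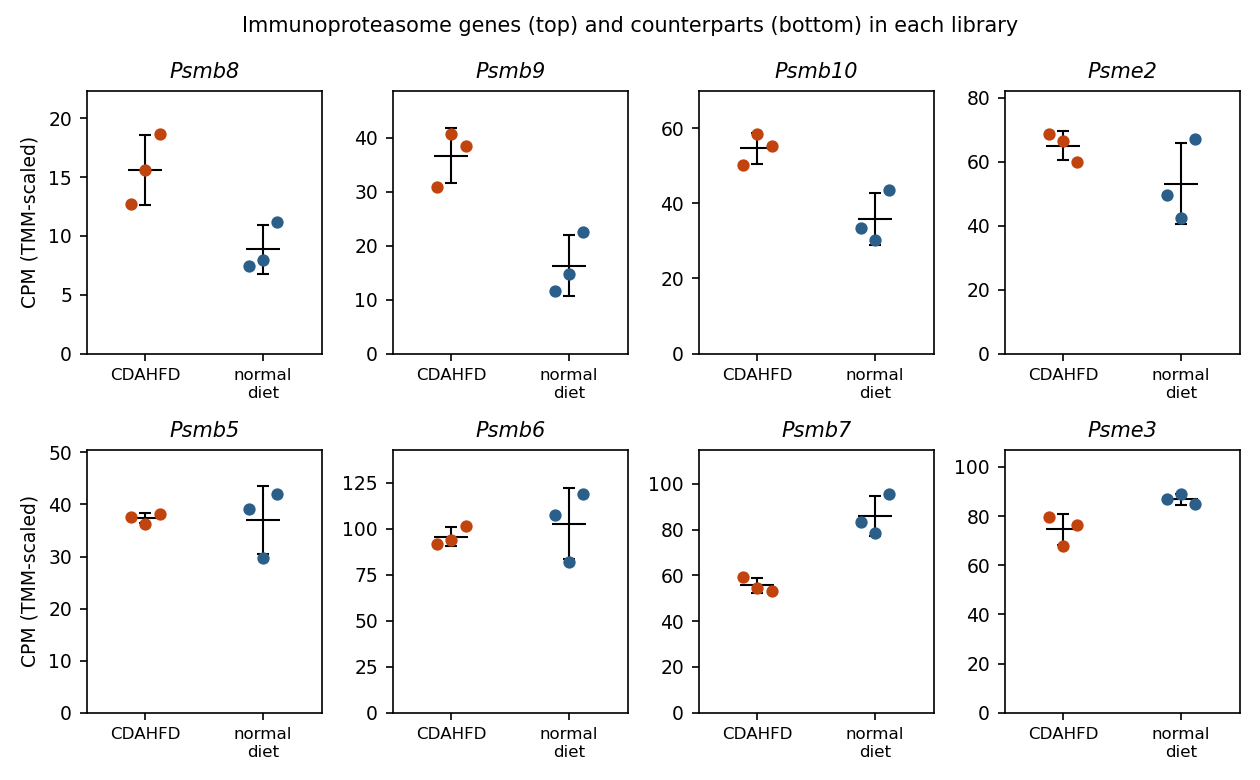
TMM-scaled CPM (vertical axes, from 0) of Psmb8, Psmb9, Psmb10 and Psme2 in the upper row and of Psmb5, Psmb6, Psmb7 and Psme3 below them, with 1 point per library, CDAHFD left and normal diet right, and bars for the mean ± SD (n = 3). Psmb8, Psmb9 and Psmb10 are higher in every CDAHFD library, Psmb7 and Psme3 are lower in every CDAHFD library, and Psmb5, Psmb6 and Psme2 overlap.

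The balance of RNA within each pair was read from the count ratio in each library, which no library scaling can alter. Such a ratio does not show an exchange of subunits in proteasomes. The part in it of the cell type shifts given above was not tested. Psmb9 counts per Psmb6 count were 0.338, 0.432 and 0.378 on CDAHFD, against 0.107, 0.181 and 0.189 on normal diet, a ratio 2.47-fold higher. Psmb10 counts per Psmb7 count were 0.847, 1.07 and 1.04 on CDAHFD, against 0.403, 0.385 and 0.456 on normal diet, 2.37-fold higher. Psmb8 counts per Psmb5 count were 0.337, 0.428 and 0.489 on CDAHFD, against 0.189, 0.267 and 0.266 on normal diet, 1.74-fold higher. In these 3 pairs all CDAHFD libraries exceeded all normal diet libraries. Each had p = 0.10 in an exact two-sided permutation test, which is the smallest that 3 libraries against 3 allow, and 0.167 after Benjamini-Hochberg adjustment over the 5 ratios. The 3 pairs reached their ratios differently: with TMM, Psmb8 and Psmb9 rose beside counterparts whose diets overlapped, while Psmb10 rose beside a counterpart that fell.

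For the cap, Psme1 and Psme2 were set against Psme3, which forms a nuclear cap of its own. The Psme2 ratio was 0.860, 0.985 and 0.788 on CDAHFD, against 0.574, 0.477 and 0.793 on normal diet, 1.45-fold higher on average with overlap (exact permutation p = 0.20, adjusted 0.25). The Psme1 ratio was 1.12-fold higher with overlap (exact permutation p = 0.40). Psme3 itself (ENSMUSG00000078652) had 79.8, 67.7 and 76.3 CPM on CDAHFD, against 86.7, 89.1 and 84.7 CPM on normal diet. It was lower in every CDAHFD library, but its log2 difference of -0.22 ± 0.10 did not pass (adjusted p = 0.0914, edgeR's quasi-likelihood test).

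Per unit of gene length, as the deposited TPM give it, the inducible forms differed in how much of their pair they made up. Psmb8 was 9.98 ± 1.65% of the summed TPM of Psmb8 and Psmb5 on CDAHFD and 6.01 ± 1.06% on normal diet. Psmb9 was 16.3 ± 1.69% of its pair on CDAHFD and 7.49 ± 1.99% on normal diet. Psmb10 was 66.3 ± 2.88% of its pair on CDAHFD and 45.4 ± 2.16% on normal diet (SD, n = 3 each throughout). Psmb10 thus passed its counterpart on CDAHFD by this measure, whereas Psmb5 and Psmb6 stayed well above Psmb8 and Psmb9 on both diets. These shares rest on 1 fixed length per gene in the authors' table, which set Psmb8 at 3.76 times the length of Psmb5 and Psmb10 at 0.498 times that of Psmb7, and they are given without a test.

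**Figure D3:**
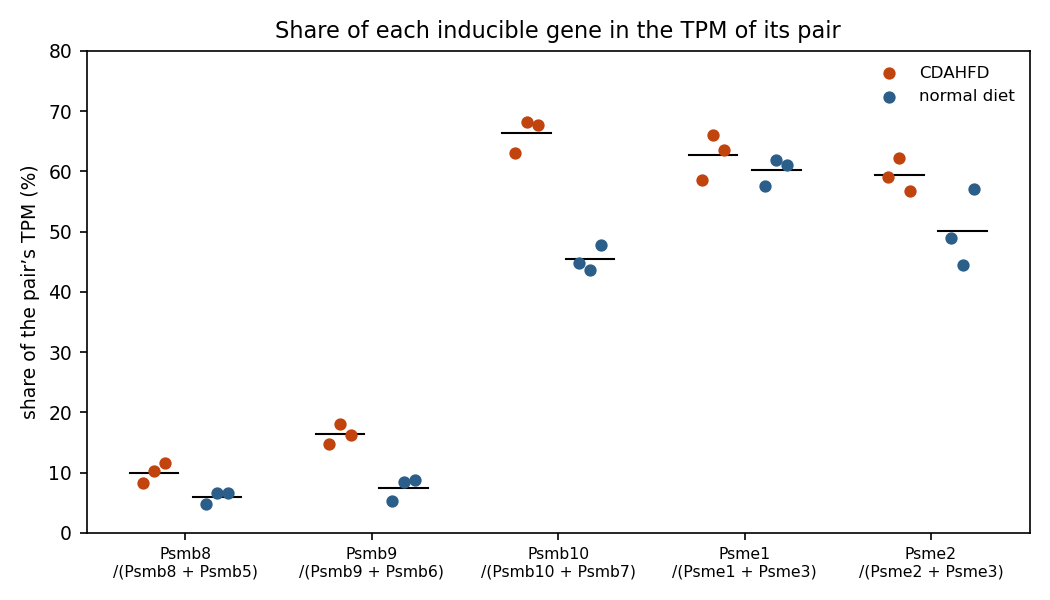
Share of each inducible gene in the summed TPM of its pair (vertical axis, %), with 1 point per library, CDAHFD left and normal diet right in each pair, and lines for the means. The diets do not overlap for Psmb8, Psmb9 and Psmb10, with means of 66.3% and 45.4% for Psmb10, and overlap for Psme1 and Psme2.

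The difference between the immunoproteasome genes and the standard proteasome was then tested itself, by scaling each library to the summed counts of the 44 standard members and fitting all genes again. On this scale 44.3% of all genes were called higher and 7.88% lower, since the standard members had lain below the typical gene, so a call of higher is common. The standard members made up a nearly even share of every library, so this fit nearly repeats the one with total counts. The rounded log2 changes of the 5 immunoproteasome genes were the same in both, so they are no separate evidence. Psmb9 had 11.2, 14.7 and 13.6 counts per 1000 standard proteasome counts on CDAHFD, against 3.26, 4.31 and 6.50 on normal diet, a log2 difference of 1.49 ± 0.21 (adjusted p = 0.000129, edgeR's quasi-likelihood test). Psmb8 differed by 1.14 ± 0.19 (adjusted p = 0.000371) and Psmb10 by 0.93 ± 0.14 (adjusted p = 0.000171) in the same edgeR fit. Psme2 had 24.9, 24.1 and 21.4 per 1000 on CDAHFD, against 14.1, 12.4 and 19.4 on normal diet, and it too was higher, by 0.62 ± 0.15 (adjusted p = 0.00539, edgeR's quasi-likelihood test). The 2 diets did not overlap for Psme2 on this scale, unlike in CPM. Psme1 had 30.6, 35.7 and 35.5 on CDAHFD, against 24.9, 31.6 and 28.8 on normal diet, and its difference of 0.26 ± 0.12 did not pass (adjusted p = 0.0926, edgeR's quasi-likelihood test). Relative to the standard members, 4 of the 5 were therefore higher. All 5 were when the alpha genes Psma1 to Psma7 alone were the measure, where Psme1 differed by 0.44 (adjusted p = 0.00754), without normal diet replicate 2 (0.34, adjusted p = 0.0355), or when Psmd8 was taken out of the measure (0.34, adjusted p = 0.0281), each by edgeR's quasi-likelihood test. Taking out Psmd8 was chosen after seeing the data. With the Psmc and Psmd genes as the measure it was again 4 of the 5, with Psme1 at 0.20 (adjusted p = 0.174, edgeR's quasi-likelihood test).

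The alpha ring, which gates the entrance of the core, fell nearly whole. All 7 of Psma1 to Psma7 fell, with the largest falls in Psma3, Psma1 and Psma5, and none overlapped between the diets. Of all genes tested 23.5% fell and 28.4% were lower without overlap. Psma3 (ENSMUSG00000060073) had 58.8, 67.4 and 63.1 CPM on CDAHFD, against 107.4, 106.8 and 88.0 CPM on normal diet, a log2 change of -0.67 ± 0.11 (adjusted p = 0.00048, edgeR's quasi-likelihood test). The 2 diets stood well apart. Psma1 changed by -0.63 ± 0.10 and Psma5 by -0.56 ± 0.14, and Psma6, the alpha gene with the highest CPM, by -0.44 ± 0.10. With total counts Psma3 and Psma1 were still called lower, at -0.35 and -0.31, and with hepatocyte markers none was. Those scalings called 8.08% and 4.05% of all genes lower.

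Psma8 (ENSMUSG00000036743), the germ cell form of an alpha subunit, went the other way from a very low level. It had 25, 56 and 18 raw counts on CDAHFD, against 10, 12 and 3 on normal diet, or 1.01, 2.00 and 0.702 CPM against 0.491, 0.588 and 0.150 CPM. Every CDAHFD library was above every normal diet library, but CDAHFD replicate 2 held more than the other 2 of its diet together. The log2 change was 1.59 ± 0.51 (adjusted p = 0.0212, edgeR's quasi-likelihood test). It was 1.01 without CDAHFD replicate 2 (adjusted p = 0.121) and 1.19 without normal diet replicate 3 (adjusted p = 0.0688), so by edgeR's test the call rests on those libraries. Psma8 also passed the filter on low counts only through its CDAHFD libraries, so its call adds no support.

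In the standard beta ring 3 of 7 genes fell, against 23.5% of all genes tested, and 4 were not called, with a median of -0.26. Psmb7, given above, fell the most. Psmb1 (ENSMUSG00000014769), a structural subunit, had 81.1, 97.0 and 88.0 CPM on CDAHFD, against 128.0, 130.0 and 120.4 CPM on normal diet, a change of -0.51 ± 0.11 (adjusted p = 0.00189, edgeR's quasi-likelihood test). Psmb3, another structural subunit, had 51.7, 55.3 and 58.3 CPM on CDAHFD, against 79.2, 59.4 and 77.7 CPM on normal diet. Its diets came within a few CPM of each other through normal diet replicate 2, and its change of -0.39 ± 0.12 (adjusted p = 0.0213, edgeR's quasi-likelihood test) lost the call when CDAHFD replicate 1 (adjusted p = 0.0647), normal diet replicate 1 (0.0855) or normal diet replicate 3 (0.0515) was left out. Across the 44 standard members, normal diet replicate 2 was the lowest of its diet for 21, replicate 3 for 17 and replicate 1 for 6.

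All 6 ATPases, Psmc1 to Psmc6, fell, by 0.28 to 0.74 on the log2 scale with a median of -0.45, against 23.5% of all genes tested. The diets did not overlap for any of the 6, against 28.4% of all genes lower without overlap. Psmc6 (ENSMUSG00000021832) had 60.3, 59.0 and 41.9 CPM on CDAHFD, against 82.9, 104.8 and 80.8 CPM on normal diet, a change of -0.74 ± 0.15 (adjusted p = 0.00195, edgeR's quasi-likelihood test). It was the ATPase with the widest spread on both diets, with CDAHFD replicate 3 low and normal diet replicate 2 high. Psmc5 changed by -0.49 ± 0.10 and Psmc2 by -0.46 ± 0.10. Psmc3, the ATPase gene with the highest CPM, changed by -0.30 ± 0.10 (adjusted p = 0.0249, edgeR's quasi-likelihood test) and lost the call without CDAHFD replicate 1 (adjusted p = 0.054). With total counts 1 of the 6, Psmc6, was called lower, at -0.42, against 8.08% of all genes. With hepatocyte markers none was, against 4.05% of all genes.

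Of the 14 Psmd genes 11 fell, 1 rose and 2 were not called, with a median of -0.37, against 23.5% of all genes lower and 28.5% higher. The deepest falls were in Psmd12, Psmd11 and Psmd6, which are all part of the lid that cuts off ubiquitin chains. Psmd12 (ENSMUSG00000020720) had 52.9, 59.0 and 52.9 CPM on CDAHFD, against 90.3, 99.7 and 91.4 CPM on normal diet. No library came near those of the other diet, and the change of -0.77 ± 0.10 had the smallest adjusted p of the members, 8.49e-05 by edgeR's quasi-likelihood test. Psmd11 changed by -0.62 ± 0.10 (adjusted p = 0.000294) and Psmd6 by -0.62 ± 0.10 (adjusted p = 0.000504) in the same edgeR fit. All 3 were also called lower with total counts, at -0.45, -0.30 and -0.30, and none was with hepatocyte markers. Those scalings called 8.08% and 4.05% of all genes lower. The Psmd names take in Psmd5, Psmd9 and Psmd10, which help to assemble the ATPase ring and are not in the finished particle.

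Psmd8 (ENSMUSG00000030591), a subunit of the same lid, was the 1 Psmd gene that rose. It had 312.8, 246.4 and 290.0 CPM in the CDAHFD libraries, against 147.5, 163.6 and 164.9 CPM in the normal diet libraries. The lowest CDAHFD library was far above the highest normal diet library. Psmd8 averaged 283.0 ± 33.8 CPM on CDAHFD and 158.7 ± 9.67 CPM on normal diet (SD, n = 3 each), a change of 0.83 ± 0.12 (adjusted p = 0.00014, edgeR's quasi-likelihood test), and was higher under every scaling tried. In TPM, which takes length into account, it was the most abundant member on CDAHFD, at 290 TPM against 126 TPM on normal diet, while Psma6 led on normal diet, at 208 TPM on CDAHFD and 219 TPM on normal diet. Psmd8 made up 113, 89.3 and 103 of each 1000 standard proteasome counts on CDAHFD, against 41.7, 47.8 and 47.5 on normal diet. The summed standard counts overlapped between the diets as a share of the library only with Psmd8 in the sum. Of the 44 members, 28 fell relative to the typical gene.

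**Figure D4:**
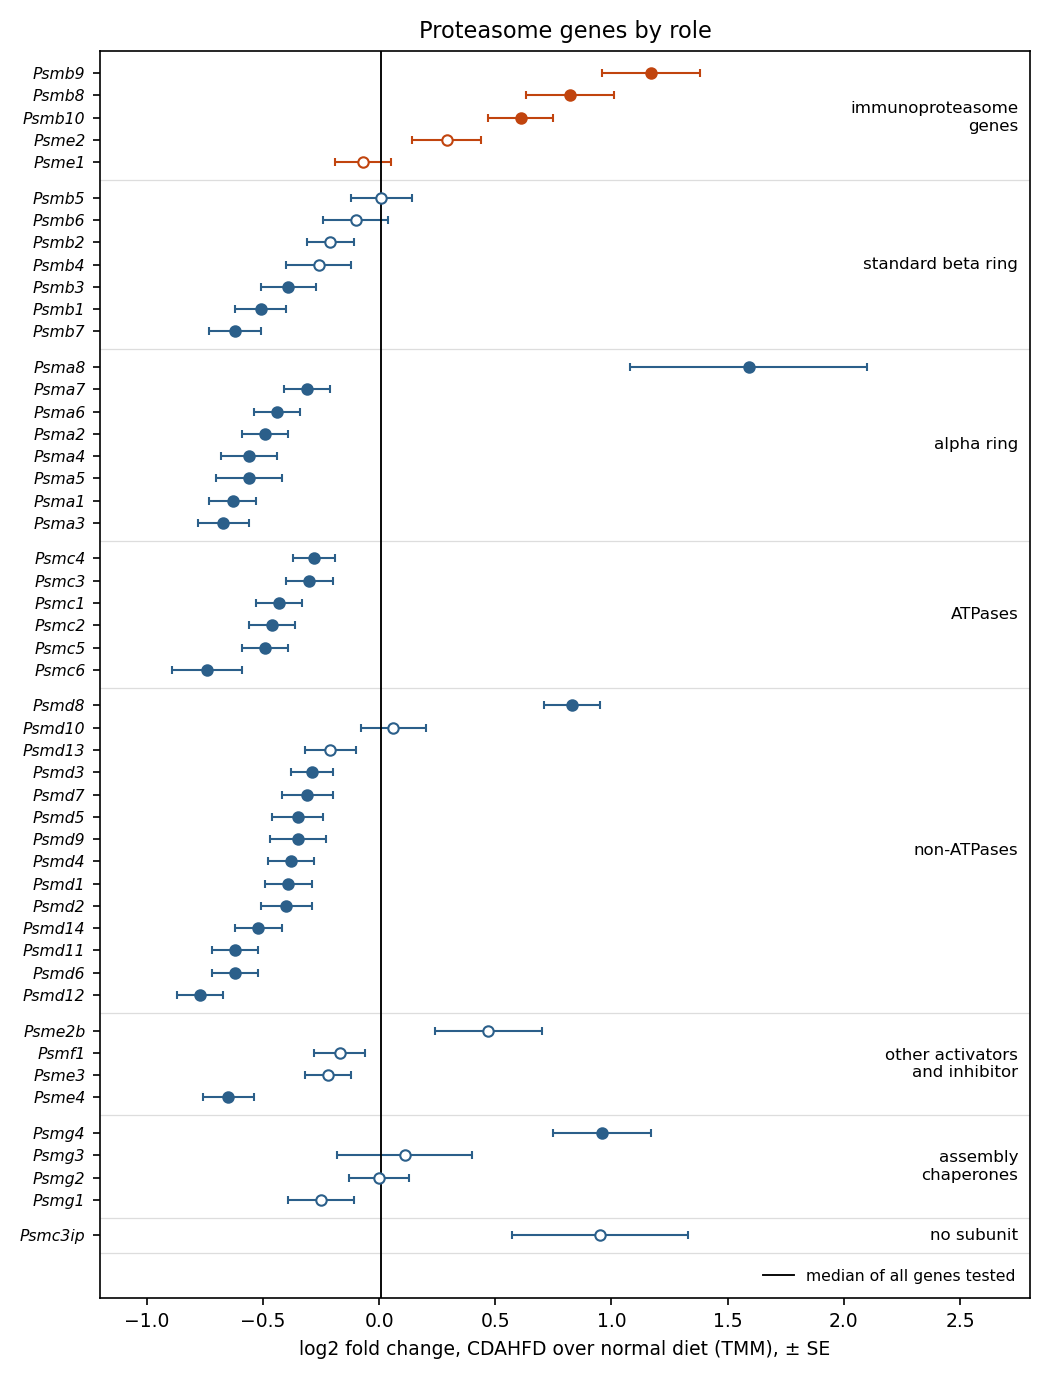
Log2 fold change of CDAHFD over normal diet with TMM scaling (horizontal axis, ± SE) for the 49 members, grouped by role, with filled points for an adjusted p under 0.05 by edgeR's quasi-likelihood test and open points otherwise. The vertical line is the median of all genes tested, 0.01, and Psmb9, Psmb8, Psmb10, Psma8, Psmd8 and Psmg4 are the filled points to its right.

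Among the other caps and the inhibitor, Psme4 (ENSMUSG00000040850), a nuclear cap known for histone breakdown in sperm development, was the 1 of 4 that fell. That count is near the 23.5% of all genes tested that fell. Psme4 had 104.0, 105.6 and 99.1 CPM on CDAHFD, against 165.0, 175.4 and 143.6 CPM on normal diet, a change of -0.65 ± 0.11 (adjusted p = 0.000452, edgeR's quasi-likelihood test). The diets stood well apart, and with total counts it was also called lower, at -0.33 (adjusted p = 0.0267, edgeR's quasi-likelihood test). Psme2b, named after its values were seen because it is the close copy of Psme2, had 103, 140 and 106 counts on CDAHFD, against 70, 45 and 80 on normal diet. It was higher in every CDAHFD library, but its log2 difference of 0.47 ± 0.23 did not pass (adjusted p = 0.109, edgeR's quasi-likelihood test).

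Of the 4 Psmg chaperones, which build the alpha ring, 1 rose, 0 fell and 3 were not called. The 1 of 4 that rose is near the 28.5% of all genes tested that did so. Psmg4 (ENSMUSG00000071451) had 10.4, 10.3 and 10.3 CPM on CDAHFD, against 5.60, 3.43 and 6.85 CPM on normal diet, a change of 0.96 ± 0.21 (adjusted p = 0.00282, edgeR's quasi-likelihood test). The CDAHFD libraries were nearly equal and all above the normal diet libraries, among which replicate 2 was lowest. Psmg1, the chaperone gene with the highest CPM, had a log2 difference of -0.25 ± 0.14 that did not pass (adjusted p = 0.153, edgeR's quasi-likelihood test), but did without normal diet replicate 2, at -0.37 (adjusted p = 0.0337), and it was 0.08 with total counts. Psmc3ip, which is no subunit, had 19, 23 and 23 counts on CDAHFD, against 5, 9 and 12 on normal diet, and its difference of 0.95 ± 0.38 did not pass (adjusted p = 0.054, edgeR's quasi-likelihood test). By the same edgeR test it did pass without normal diet replicate 3, at 1.25 (adjusted p = 0.0387), with total counts (adjusted p = 0.0145) and with hepatocyte markers (adjusted p = 0.00352). With those 2 scalings 44.0% and 55.6% of all genes rose. Psmc3ip passed the filter on low counts only through its CDAHFD libraries, so these passes add no support.

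Genes around the proteasome were read from 5 lists, whose counts stand beside 28.5% of all genes higher and 23.5% lower with TMM, 44.0% and 8.08% with total counts, and 55.6% and 4.05% with hepatocyte markers. In the list of subunits and partners without a Psm name, 10 of 13 fell and 0 rose with TMM, with a median of -0.39, whereas 1 fell and 0 rose with total counts and 0 fell and 3 rose with hepatocyte markers. Usp14, a deubiquitinase that trims chains on the particle, averaged 28.6 ± 1.75 CPM on CDAHFD and 48.5 ± 7.57 CPM on normal diet (SD, n = 3 each), a change of -0.76 ± 0.13. Ecpas, an adaptor that holds proteasomes on membranes and motors, changed by -0.58 ± 0.10, and Nploc4, a cofactor of the unfoldase VCP, by -0.55 ± 0.10. Adrm1, a ubiquitin receptor of the particle, and Uchl5, the deubiquitinase that docks on it, changed by -0.39 ± 0.12 and -0.57 ± 0.17. Adrm1 lost its call without normal diet replicate 1 (adjusted p = 0.0542) and Uchl5 without normal diet replicate 2 (adjusted p = 0.055), by edgeR's quasi-likelihood test. The small lid subunit gene Sem1 overlapped between the diets, with a difference of -0.11 ± 0.17.

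In the list on assembly and transcription of the proteasome, 1 of 9 tested genes rose and 4 fell with TMM, with a median of -0.24, whereas 4 rose and 2 fell with total counts and 4 rose and 0 fell with hepatocyte markers. The 4 of 9 that rose are near the 44.0% of all genes with total counts and below the 55.6% with hepatocyte markers. Ublcp1, a phosphatase that acts on nuclear proteasomes, changed by -0.82 ± 0.13. Ngly1, which removes sugars from NFE2L1, the factor that drives proteasome genes, changed by -0.81 ± 0.13. Mafk, a small partner of NFE2L1 on DNA, rose by 0.66 ± 0.17. Akirin2, which brings proteasomes into the nucleus, changed by -0.62 ± 0.13. Pomp, the chaperone that helps the core to mature, was lower in every CDAHFD library at 64.3 ± 4.27 CPM on CDAHFD and 75.7 ± 3.38 CPM on normal diet, but its difference of -0.24 ± 0.10 did not pass (adjusted p = 0.0681, edgeR's quasi-likelihood test). Without CDAHFD replicate 2 it was -0.33 and passed (adjusted p = 0.0402, edgeR's quasi-likelihood test), and with total counts it was 0.09. Of 6 ubiquitin supply genes 0 rose and 0 fell, with a median of -0.11, whereas 2 rose with total counts and 3 with hepatocyte markers, no more than the 44.0% and 55.6% of all genes that did so. Ubb, a polyubiquitin gene, differed by 0.16 ± 0.10.

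Most genes that take the peptides onward rose as well. In the class I peptide supply list 7 of 12 rose and 3 fell with TMM, with a median of 0.49, whereas 8 rose and 0 fell with total counts and 9 rose and 0 fell with hepatocyte markers. The 3 that fell with TMM were Canx, Pdia3 and Erap1, and B2m and Calr were not called. Tap1, a part of the pump that carries peptides into the endoplasmic reticulum, had 44.2, 65.1 and 55.1 CPM on CDAHFD, against 20.8, 23.2 and 31.5 CPM on normal diet, a change of 1.12 ± 0.17. In GRCm38.p6 Tap1 and Psmb9 face away from each other with 226 bases between their starts, so that the start of Tap1 lies inside the Psmb9 window printed above. Both genes had their highest CDAHFD level in replicate 2 and their highest normal diet level in replicate 3. Tap2, the other part of the pump, lies next to Psmb8 and rose by 1.06 ± 0.14. Tapbp, which holds class I molecules to the pump, rose by 1.01 ± 0.12, and H2-D1, a class I heavy chain with close copies that may share reads, rose by 1.22 ± 0.14.

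In the interferon-gamma signalling list 6 of 9 tested genes rose and 0 fell with TMM, with a median of 0.79, whereas 8 rose with total counts and 9 with hepatocyte markers. Of the 6, Socs1 passed the filter on low counts only through its CDAHFD libraries, so its call adds no support. Ifng itself had 1 count in all, in CDAHFD replicate 3, and was too low to test. Irf8, a factor that is also a mark of myeloid cells, had 31.9, 37.6 and 38.0 CPM on CDAHFD, against 7.86, 6.66 and 11.2 CPM on normal diet, a change of 2.06 ± 0.18. Irf1, a factor that switches on immunoproteasome genes, had 30.7, 43.6 and 42.7 CPM on CDAHFD, against 17.8, 19.6 and 22.0 CPM on normal diet, a change of 0.98 ± 0.15. Neither overlapped between the diets, and CDAHFD replicate 1 was the lowest of its diet for both, as it was for Psmb8, Psmb9 and Psmb10. The same library was also the lowest of its diet for 24 of the 44 standard members. The receptor genes Ifngr1 and Ifngr2 rose by 1.02 ± 0.10 and 0.79 ± 0.12. The leukocyte markers given above rose beside both lists, and their part in these results was not tested.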

How the data were processed

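Total RNA of liver was extracted with TRIzol and made into stranded, ligation-based mRNA libraries from 1 µg, per the labels' protocols. STAR 2.7.11a and the build GRCm39 are named in the submitters' processing notes. Not given in the sources used here: counting tool, strand setting, annotation and treatment of shared reads. The authors deposited raw counts per gene and TPM. The deposited TPM were the counts divided by 1 fixed length per gene and scaled to 1000000 per library, as checked on 10088 genes. Columns beginning with CD were read as CDAHFD and those with ND as normal diet, by replicate number, and no column was left unused.

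Counts were fitted with edgeR 4.0.16 in R 4.3.3 (filterByExpr by diet, minimum count 10, TMM, glmQLFit and glmQLFTest, diet as the only term, Benjamini-Hochberg over 14215 genes, threshold 0.05). The same fit was run with each library scaled to the 44 standard members. The code was tested on simulated counts in which few genes changed, up or down at random, so that test cannot decide between the scalings. Alternatives used limma 3.58.1, DESeq2 1.42.0, other scalings (RLE, total counts, the summed counts of 12 hepatocyte markers), other filters and single libraries left out. Ratios were tested by exact permutation. Symbols were matched for 51911 of 56847 IDs. Promoters came from RefSeq with GRCm38.p6, of which 41 members had one and 32851 windows were searched.

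Members and lists were chosen with earlier results of these data known. In each role the genes named are the immunoproteasome genes and their counterparts, up to 3 called members with the largest change in each direction and the one with the highest CPM; in each list, up to 4 called genes with the largest change and at least 1 CPM, and the first 2 written, except 1 gene that is not reported here. Gene Paaf1 of the assembly list was not analysed here. Single cell type markers, Socs1, Canx, Pdia3, Erap1, B2m and Calr were named after their values were seen. Libraries of 1 diet differed by more than counting error (chi-square per degree of freedom 19.1 to 43.4), so none is a copy of another.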

Additional observations from a re-analysis of the deposited data

How the results depend on the processing

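The scaling of the libraries decided the calls of the standard proteasome genes; the cause was not tested. With total counts 7 standard members were higher and 8 lower, with hepatocyte markers 10 and 0, and with limma on log2(TPM + 1) or log2(TPM + 0.1) 8 and 1. With hepatocyte markers 5 immunoproteasome genes were higher. Genes of the 5 lists called higher numbered 22 with total counts, 28 with hepatocyte markers and 22 with either TPM pseudocount, against 14 in the fit as reported, and genes called lower 3, 0 and 2, against 17. RLE size factors, DESeq2, limma-voom, either filter and TMM without the 20 most counted genes kept these counts within 1.5 times. Of the 49 members, 13 had another sign than with TMM under total counts and 26 under hepatocyte markers. Among the genes given with values in the report, the log2 changes that turned sign, with total counts, hepatocyte markers, TPM + 1 and TPM + 0.1 in that order, were 0.26, 0.46, 0.30 and 0.30 for Psme1, 0.22, 0.42, 0.28 and 0.28 for Psmb6, 0.10, 0.31, 0.14 and 0.14 for Psme3, 0.02, 0.22, 0.07 and 0.07 for Psmc3, 0.08, 0.28, 0.12 and 0.13 for Psmg1, 0.09, 0.29, 0.13 and 0.13 for Pomp, and 0.22, 0.42, 0.27 and 0.28 for Sem1. Among those genes, with hepatocyte markers but not total counts, Psmc5 came to 0.04, Psmc2 to 0.06, Psma6 to 0.08, Psmb1 to 0.02, Psmb3 to 0.14 and Adrm1 to 0.14. Psmb5, near 0 with TMM, was at -0.0046 with RLE and with DESeq2, and ran from -0.13 to 0.11 without 1 library; Psmb6 ran from -0.25 to 0.0043. Leaving out each library in turn gave 22 to 29 standard members lower and 2 to 4 higher, 3 to 4 immunoproteasome genes higher, 4 to 5 higher relative to the standard members, and 13 to 16 list genes higher and 15 to 18 lower. The log2 ratio ran from 0.63 to 0.94 for Psmb8 over Psmb5, 1.04 to 1.45 for Psmb9 over Psmb6, 1.19 to 1.35 for Psmb10 over Psmb7, 0.06 to 0.29 for Psme1 over Psme3 and 0.37 to 0.74 for Psme2 over Psme3. Same-numbered libraries of the 2 diets had deviations correlated at -0.047, 0.069 and 0.118, of which 1 is over 0.1, so they were taken to share only a number (CDAHFD replicates 2 and 3 correlated best with their own number, and replicate 1 with normal diet replicate 2, at 0.089); a replicate block left 28 standard members lower, 3 higher, 3 immunoproteasome genes higher and 4 higher relative to the standard members. With 3 libraries a diet, ratios cannot reach p under 0.10, and Psma8 and Psmc3ip had few counts.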
